A study of Mus musculus with 8 samples.

Results

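The 10 genes described here belong to the glucocorticoid stress response: the receptor genes Nr3c1 and Nr3c2, the receptor cochaperone Fkbp5, the steroid-induced genes Tsc22d3, Sgk1, Zbtb16, Pdk4 and Errfi1, the steroid-regenerating enzyme Hsd11b1 and the CRH receptor Crhr1. They were chosen by name, but with earlier results of these data known. All 10 were found in both gene tables of the study, 10 of 54532 genes listed for PTS + RS and RS and 10 of 28229 listed for RGFP109 and vehicle. RNA-seq covered 8 libraries of C57BL/6 mouse brain, all labelled Day 21. The mice were male by the study's methods, which give an age for an open-field test but not for the mice sequenced. The PTS + RS group (2 libraries) had photothrombotic stroke, a light-induced clot in the right cortex, plus daily restraint stress, and the RS group (2 libraries) had restraint stress only. In the second experiment all mice were PTS + RS mice, given either RGFP109 (2 libraries), used by the study as an HDAC3 inhibitor at 60 mg/kg under the skin once a day for 2 weeks by the labels and methods, or vehicle (2 libraries, named NaCl in the labels). By the methods RGFP109 was dissolved in DMSO and diluted in a cyclodextrin solution with sodium acetate, and what the vehicle held is not stated. If it was NaCl, drug and solvent cannot be told apart. A figure legend of the study gives a longer course of RGFP109, and which course the sequenced mice had is not clear. Every group was therefore restrained, and no unstressed group was analysed here. The labelled tissue was cortex, except for replicate 2 of RGFP109 and of vehicle, which are labelled amygdala. Whether a library held 1 mouse or a pool is not stated, so that the spread between libraries may be technical in part.

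Corticosterone, the main glucocorticoid of mice, enters the brain and binds the glucocorticoid receptor (encoded by Nr3c1) and the mineralocorticoid receptor (Nr3c2), which has the higher affinity for it and is abundant in the hippocampus. The bound receptor moves to the nucleus, binds short palindromic DNA elements and induces genes such as Fkbp5, Tsc22d3, Sgk1 and Per1. The product of Fkbp5 in turn lowers the affinity of the receptor for the hormone. The enzyme encoded by Hsd11b1 makes active corticosterone from its inert form within cells, and Crhr1 encodes the main receptor of corticotropin-releasing hormone, which drives the hormonal stress axis.

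The libraries were first compared on marker genes of brain regions and cell types, because these bear on every result below. Libraries held 15902013 to 21712033 counts on genes. Vehicle replicate 1, labelled cortex, stood apart: 10 olfactory bulb markers summed to 572 FPKM (the deposited level per gene length and library size) there and to between 23.6 and 27.0 in the other 7 libraries, in each of which the marker S100a5 was at 0. In the same library 10 cortex markers summed to 104 FPKM, against 266 to 327 elsewhere. The sum of amygdala markers did not set the amygdala-labelled libraries apart. The 10 of them summed to 127 FPKM in both. In the cortex-labelled libraries the sum was between 132 and 149, except for 36.6 in vehicle replicate 1. Dkk3 alone made up 99.8 FPKM of the sum in both amygdala-labelled libraries, so that it says little on the other markers. The defining marker Sim1 was at 0 in RGFP109 replicate 2 and had at most 3 counts in any library. In the RGFP109 experiment, 4 of 9 tested amygdala markers were higher in the amygdala-labelled libraries and 1 lower without overlap, against 21.6% and 22.4% of all genes. The 10 striatal markers, by contrast, summed to 403 and 452 FPKM in the amygdala-labelled libraries and to between 36.4 and 104 in the others. The 10 hippocampal markers, a list chosen after their values were seen, summed to between 143 and 213 FPKM in the PTS + RS and RS libraries and in RGFP109 replicate 1, and to 53.4, 30.5 and 54.9 in RGFP109 replicate 2, vehicle replicate 1 and vehicle replicate 2. Choroid plexus markers summed to between 1140 and 2838 FPKM in 4 libraries, and only to between 4.53 and 17.6 in PTS + RS replicate 2, RGFP109 replicate 2 and both vehicle libraries. The tissue is therefore called "labelled cortex" or "labelled amygdala" throughout. In bulk tissue, fewer cells of a type and less RNA per cell cannot be told apart.

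**Figure D1:**
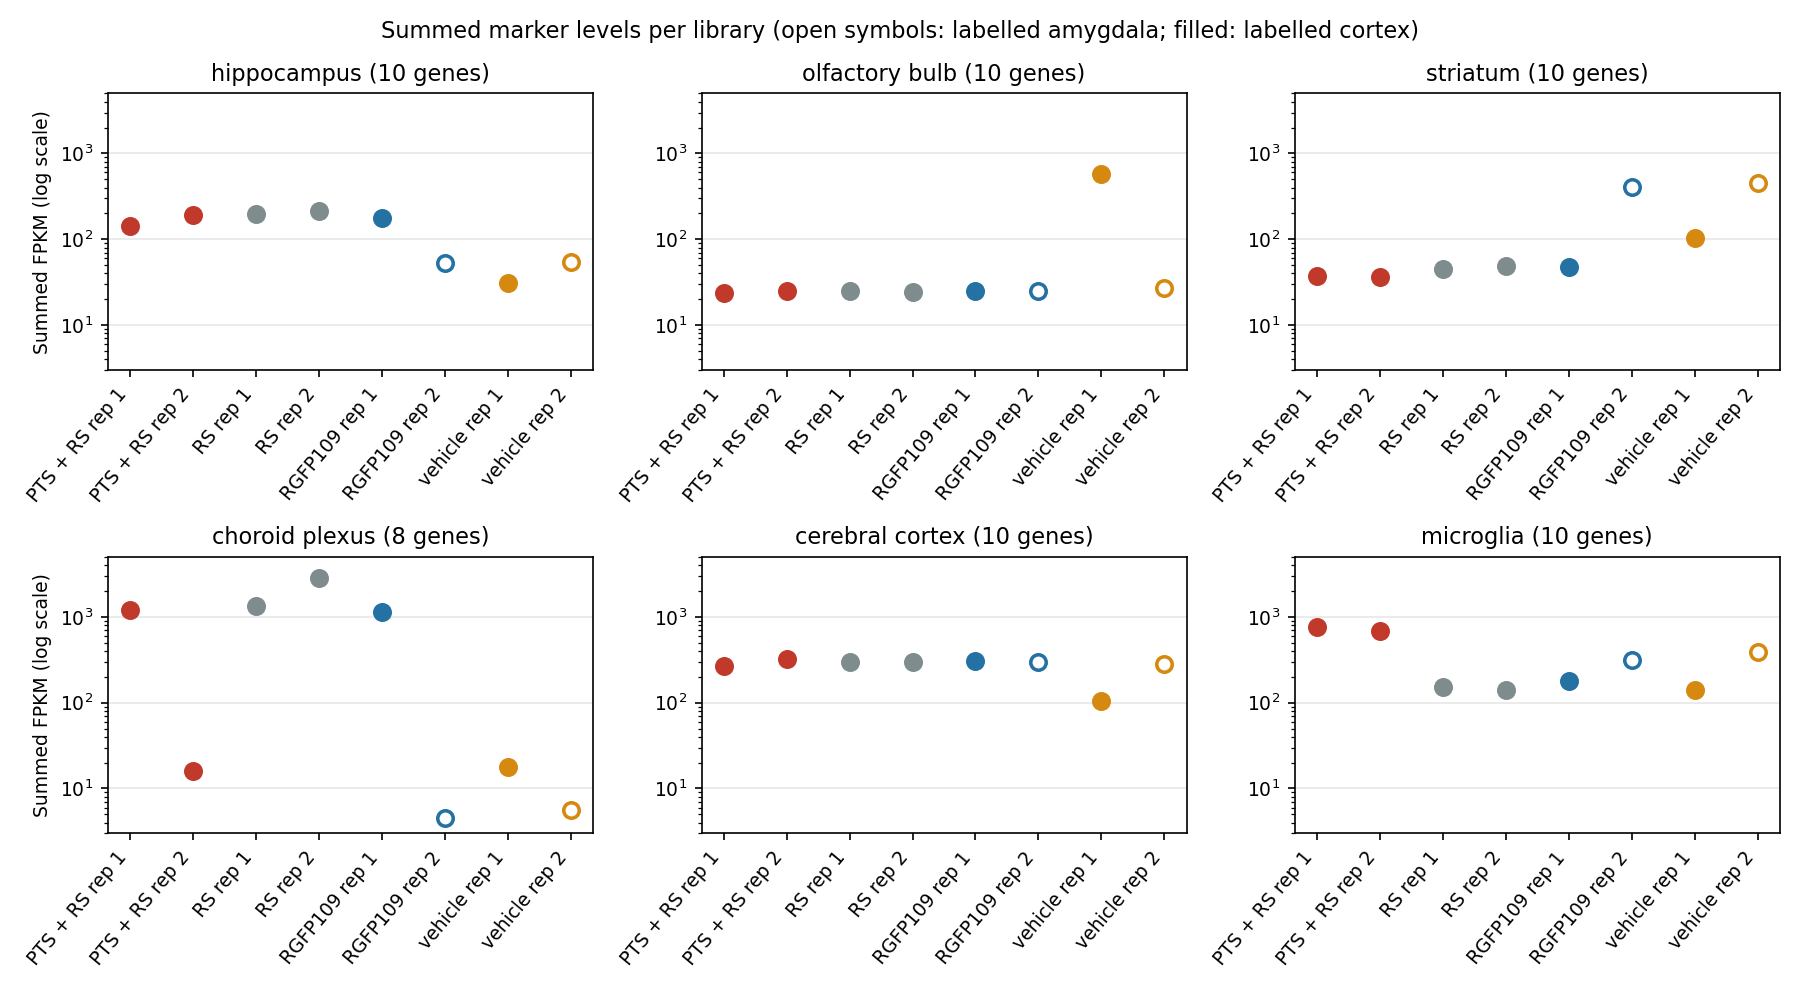
Summed FPKM (log scale) of marker genes of 4 brain regions or structures, of cerebral cortex and of microglia in each of the 8 libraries, filled symbols for labelled cortex and open symbols for labelled amygdala. Vehicle replicate 1 stands alone at 572 FPKM of olfactory bulb markers, and the 2 amygdala-labelled libraries hold the highest striatal sums, 403 and 452 FPKM.

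Sgk1 encodes a kinase that regulates ion transport and has long served as a model of direct induction by corticosteroids. Its sequence is shown because 1 of its promoter windows holds the full palindrome that the receptor is known to bind. Windows of 300 bases, from 250 bases before to 50 bases after each RefSeq gene start on GRCm38.p6, were available for 8 of the 10 genes (16 windows) and were searched for AGAACA, any 3 bases and TGTTCT, a palindrome that reads alike on both strands. It occurred in 3 of 32851 windows of all genes, or 0.00913%, and the window of Sgk1 at chr10:21993640-21993939 (plus strand) was 1 of them. There the motif begins 189 bases before the start. The looser palindrome GNACA, any 3 bases and TGTNC (N stands for any base), which the first also contains, occurred in 0.475% of all windows. Among the windows of the 10 genes it was found only in that of Sgk1. Of 20 other glucocorticoid-induced genes considered below, 17 had a window, and Mt1 and Fam107a held the looser palindrome, 94 and 118 bases before the start. They are printed beside Sgk1 since both were past the test between PTS + RS and RS, whereas Sgk1 was not. Mertk, another of the 20 genes and also past that test, was not among those found with a palindrome. A link between palindrome and expression was not tested. The element TGTTCT alone, searched on both strands and part of the full palindrome, was in 19% of all windows and is too frequent to set a gene apart. Capitals mark the palindrome in the sequences, each a stretch of the window on the gene's own strand, for Sgk1 at chr10:21993671-21993745, for Mt1 at chr8:94178965-94179037 and for Fam107a at chr14:8309855-8309927.
Sgk1: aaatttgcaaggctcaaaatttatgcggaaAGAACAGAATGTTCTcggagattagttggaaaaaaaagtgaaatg
Mt1: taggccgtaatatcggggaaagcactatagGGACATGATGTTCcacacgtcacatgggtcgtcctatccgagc
Fam107a: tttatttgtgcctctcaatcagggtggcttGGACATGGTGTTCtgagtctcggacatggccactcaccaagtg

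Per length, the median level over the 8 libraries ran from 2.91 FPKM for Pdk4 to 22.8 for Nr3c2. Nr3c1 (ENSMUSG00000024431, chromosome 18 from 39410545 to 39491301 on GRCm38) varied little, from 9.86 FPKM in vehicle replicate 1 to 15.3 in RGFP109 replicate 2, a ratio of 1.55. Errfi1 (chromosome 4 from 150853919 to 150868892), which encodes a feedback inhibitor of EGF receptor signalling, varied as little, from 8.54 to 13.2 FPKM. Nr3c2 (ENSMUSG00000031618, chromosome 8 from 76899442 to 77245012) was at 23.2 and 30.5 FPKM in the PTS + RS libraries, 33.7 and 35.2 in the RS libraries and 22.4 in RGFP109 replicate 1. It was at only 6.28, 7.72 and 5.20 FPKM in RGFP109 replicate 2, vehicle replicate 1 and vehicle replicate 2, the 3 libraries that were also low in hippocampal markers. The part of that region in the level of Nr3c2 was not tested.

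Of the cochaperone and the steroid-induced genes, all but Errfi1 were highest in the amygdala-labelled libraries. Sgk1 (ENSMUSG00000019970, chromosome 10 from 21882184 to 21999903) was at 36.2 and 41.9 FPKM there, at 8.40 in vehicle replicate 1 and at 12.8 to 16.6 in the other 5 libraries. Tsc22d3 (ENSMUSG00000031431, chromosome X from 140539528 to 140600659), which encodes the anti-inflammatory protein GILZ, was at 23.6 and 29.9 FPKM in these libraries and at 7.69 to 12.3 in the other 6. The same order held for Fkbp5 (ENSMUSG00000024222, chromosome 17 from 28399094 to 28517527), at 11.3 and 14.2 FPKM against 3.94 to 7.47. For Zbtb16, a zinc finger transcription factor, the amygdala-labelled libraries were at 20.2 and 17.7 FPKM and the others between 5.78 and 15.6. Pdk4, a kinase that restrains pyruvate oxidation, was the lowest of the group, at 4.17 and 4.61 FPKM against 1.76 to 3.72. Fkbp5, Tsc22d3, Sgk1, Zbtb16 and Pdk4 thus had no overlap between labelled tissues over all 8 libraries, although the FPKM of the 2 tables were normalized separately. The share of all genes without overlap in this split was not computed, so that it cannot be said whether this is unusual. Errfi1 did overlap, at 11.9 and 13.2 FPKM in the amygdala-labelled libraries and at 12.02 in PTS + RS replicate 2.

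Hsd11b1 and Crhr1 each took an extreme value in vehicle replicate 1. Hsd11b1 (ENSMUSG00000016194, chromosome 1 from 193221634 to 193264075) was at 1.02 FPKM in that library, 2.21 and 2.29 in the amygdala-labelled libraries, 4.45 in RGFP109 replicate 1, 3.73 and 5.16 in the PTS + RS libraries and 5.36 and 6.48 in the RS libraries. Crhr1 (ENSMUSG00000018634, chromosome 11 from 104132855 to 104175523) was at 29.0 FPKM in vehicle replicate 1 and between 3.73 and 8.17 in the other 7, a 7.79-fold range. This library also held the olfactory bulb markers, whose part in both values was not tested.

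**Figure D2:**
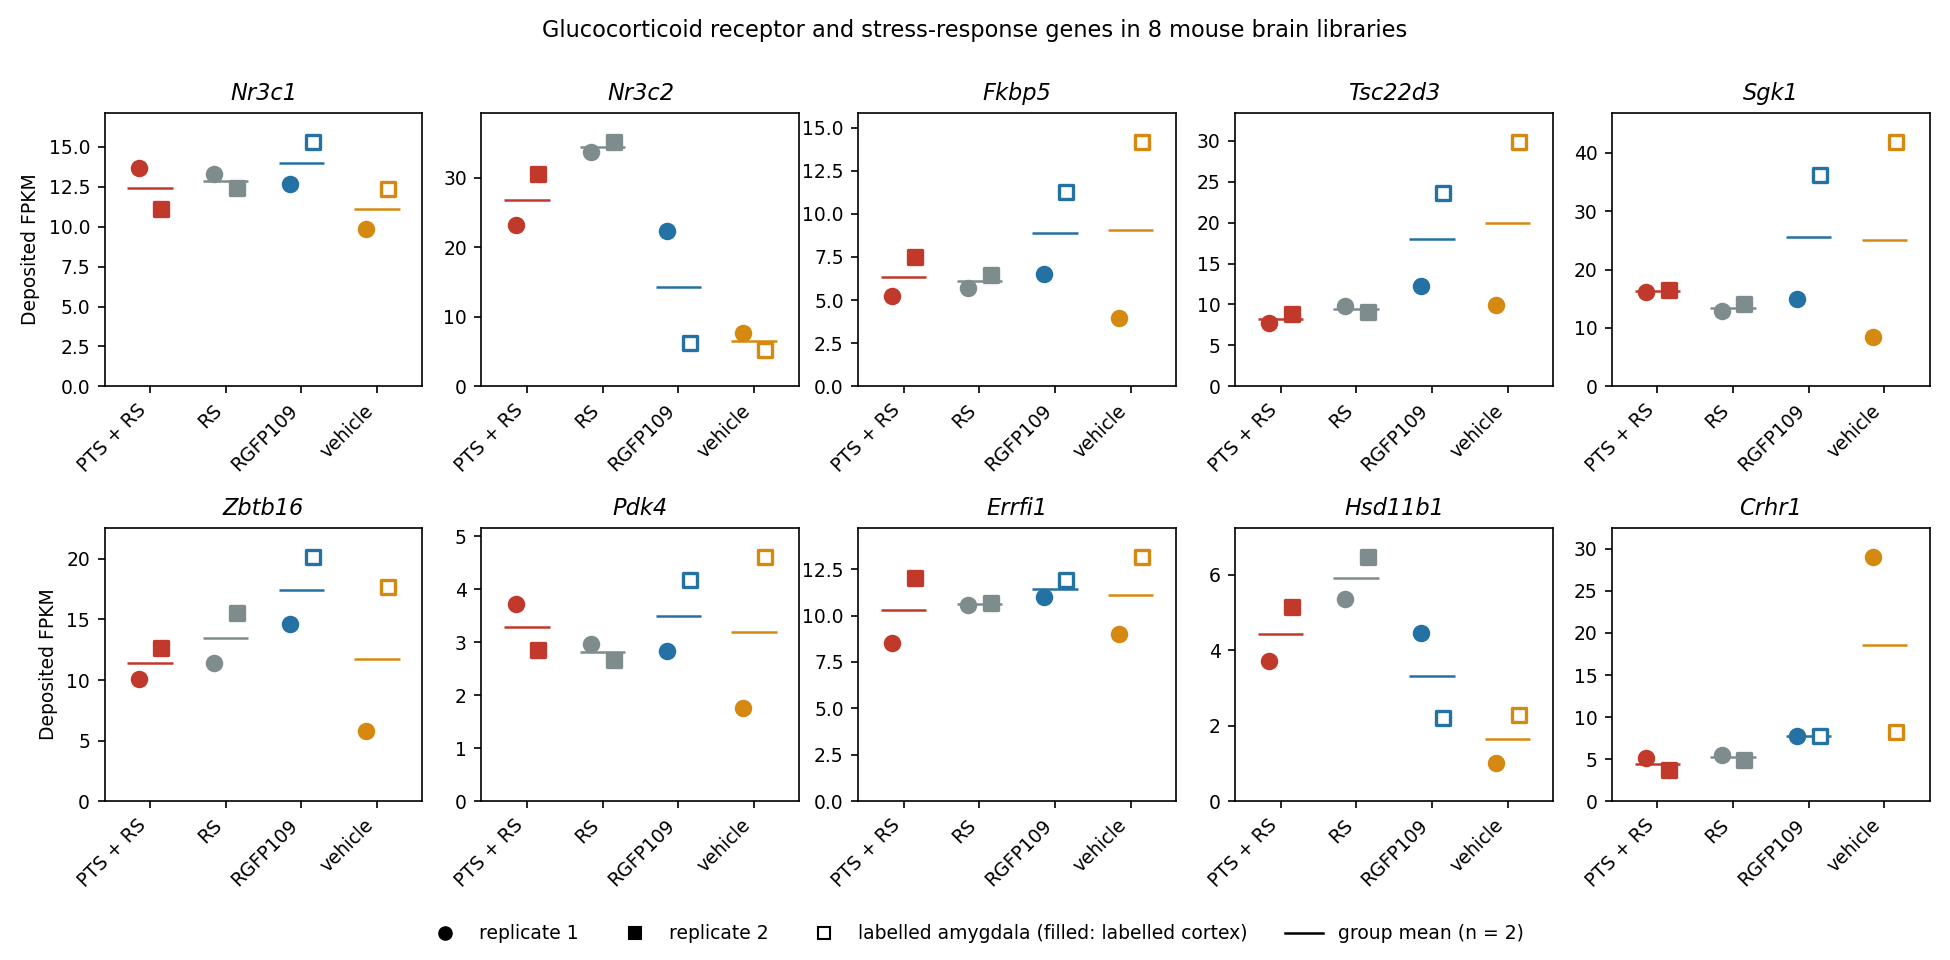
FPKM of each of the 10 genes in the 8 libraries by group, circles for replicate 1, squares for replicate 2, open squares for labelled amygdala, lines for the mean of 2 libraries. Sgk1, Tsc22d3 and Fkbp5 are highest in the 2 open squares, and Crhr1 reaches 29.0 FPKM in 1 vehicle library only.

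The first comparison asked how stroke added to restraint stress alters the cortex-labelled tissue. None of the 10 genes changed past the threshold, an adjusted p under 0.05 by edgeR's quasi-likelihood test over 17581 tested genes, at which 2.96% of all tested genes were higher and 0.586% lower in the PTS + RS group. With the further limit of a log2 fold change of 1, which 2.12% of all genes passed upwards and 0.091% downwards, the number was again 0. Levels are given as CPM, the counts scaled by library size after TMM normalization. Each of the 10 passed the filter on low counts. At an unadjusted p under 0.05 Sgk1 was higher and Nr3c2 lower, against 10.3% and 7.55% of all genes. Sgk1, Nr3c2, Tsc22d3 and Hsd11b1 had no overlap between the groups, the first higher and the other 3 lower. Across all tested genes, 25.7% were higher and 24.5% lower without overlap, so that 4 genes of 10 lie near the background.

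Of the receptors, Nr3c1 was at 103 and 83.1 CPM in the PTS + RS libraries and at 99.3 and 92.5 in the RS libraries. The RS values lay between the PTS + RS values, with a log2 fold change of -0.05 ± 0.11 (SE, 95% interval -0.31 to 0.22). Nr3c2 was at 152 and 199 CPM in the PTS + RS group, below both RS libraries at 219 and 229. Its log2 fold change was -0.35 ± 0.13 (SE, adjusted p = 0.20 by edgeR's quasi-likelihood test), and the larger part of the difference came from PTS + RS replicate 1. Hippocampal markers summed to 193 FPKM in PTS + RS replicate 2 and to 194 and 213 in the RS libraries. Their sum was lowest in PTS + RS replicate 1, at 143 FPKM, and its part in the level of Nr3c2 was not tested. Against the RS group, that library alone gave a log2 fold change of -0.56 (adjusted p = 2.6e-04, same test), in a fit that called 1278 of 18374 genes lower, and PTS + RS replicate 2 alone gave -0.18 (adjusted p = 0.12).

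Fkbp5 was at 49.97 and 71.1 CPM in the PTS + RS group, on either side of the RS libraries at 54.5 and 61.1. Its log2 fold change was 0.07 ± 0.16 (SE, 95% interval -0.32 to 0.45). Tsc22d3 was at 33.7 and 38.7 CPM in the PTS + RS group and at 42.8 and 39.8 in the RS group, with a log2 fold change of -0.19 ± 0.11 (SE, adjusted p = 0.41, edgeR). Sgk1 went the other way, at 80.4 and 81.6 CPM against 63.3 and 69.6. Both PTS + RS libraries were above both RS libraries by more than their spread, a 1.22-fold difference (log2 fold change 0.29 ± 0.083 SE, 95% interval 0.09 to 0.48), but the adjusted p was 0.13 by edgeR's test. The call turned on 1 library: without PTS + RS replicate 1, Sgk1 was past the threshold (0.30, adjusted p = 0.048), as were 1018 of 18250 genes in that direction. The other steroid-induced members were spread as widely within the groups as between them. Zbtb16 was at 53.8 and 67.1 CPM against 60.6 and 82.6, Pdk4 at 13.2 and 10.1 against 10.5 and 9.40, and Errfi1 at 30.9 and 43.3 against 38.1 and 38.4. Their log2 fold changes were -0.24, 0.22 and -0.05, with adjusted p of 0.50, 0.59 and 0.92 (edgeR).

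Hsd11b1 had the largest fitted difference of the 10 genes here. It was at 15.99 and 22.02 CPM in the PTS + RS group and at 22.9 and 27.6 in the RS group, so that both groups were close to overlap. The log2 fold change was -0.41 ± 0.18 (SE, adjusted p = 0.29, edgeR), and -0.66 (adjusted p = 0.017) without PTS + RS replicate 2. Crhr1 was at 12.8 and 9.22 CPM against 13.6 and 12.1, with a log2 fold change of -0.22 ± 0.20 (SE, 95% interval -0.69 to 0.24). Among the markers, the summed FPKM of 10 microglial genes was 770 and 682 in the PTS + RS libraries against 151 and 140 in the RS libraries, and 10 of 10 were past the threshold. Choroid plexus markers were at 16.1 FPKM in PTS + RS replicate 2 and at 1216 or more in the other 3 libraries. The part of either, or of the hippocampal markers, in the values of the 10 genes was not tested.

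**Figure D3:**
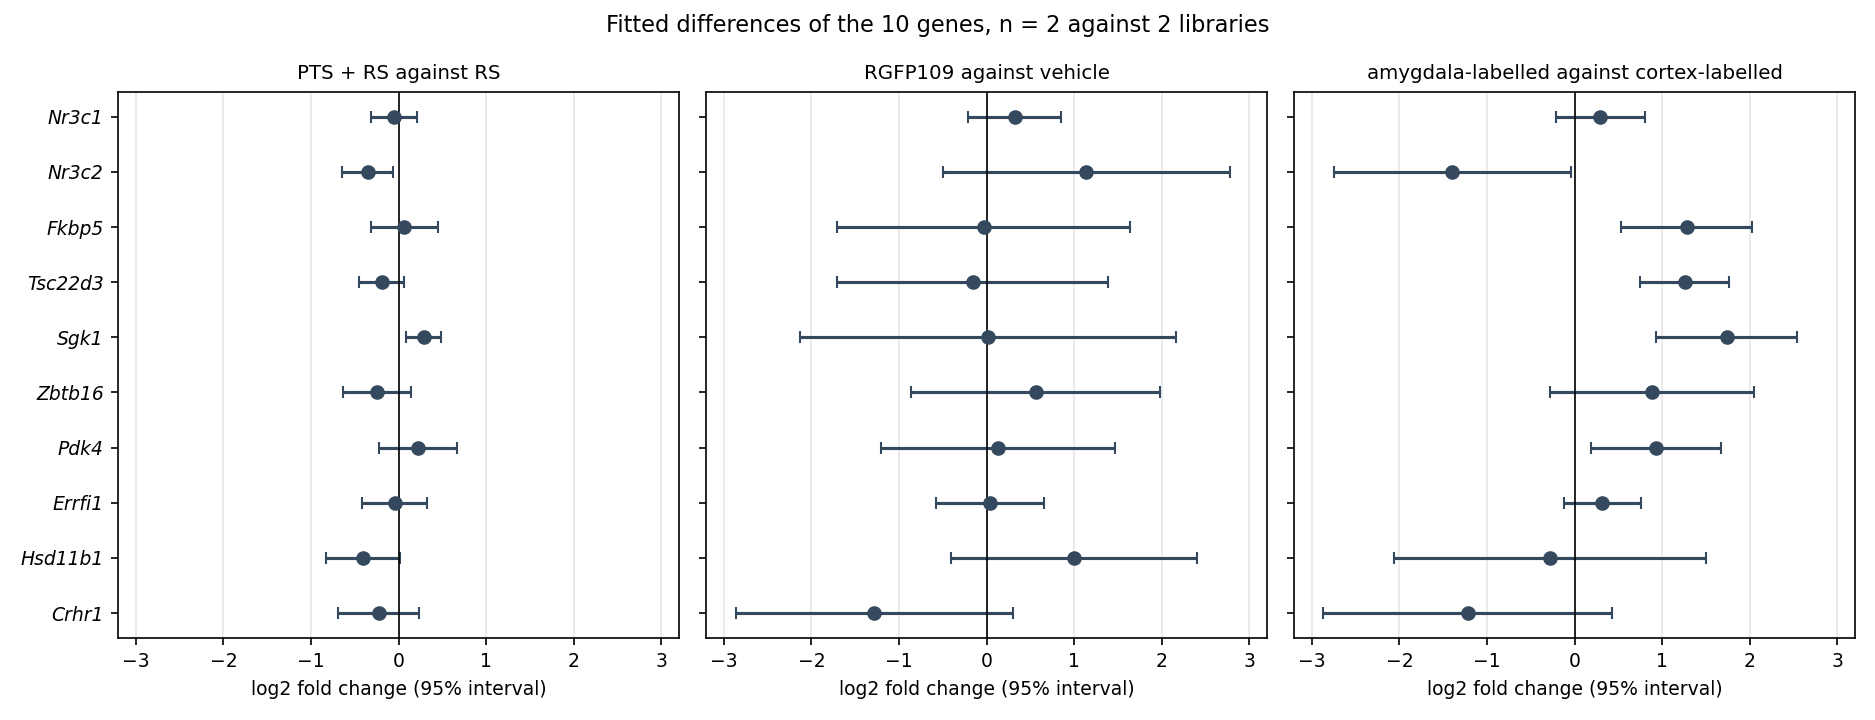
Log2 fold change (x axis) of each of the 10 genes in the 3 comparisons, 2 libraries against 2, with its 95% interval from edgeR. In PTS + RS against RS all intervals lie within -0.83 and 0.67, and only those of Sgk1 and Nr3c2 leave out 0; in amygdala-labelled against cortex-labelled, Sgk1 (1.74), Fkbp5 (1.28), Tsc22d3 (1.26), Pdk4 (0.93) and Nr3c2 (-1.40) do so.

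Other genes of the pathway were taken from 5 lists, written from general knowledge but with earlier results of these data known. Of 20 other glucocorticoid-induced genes, 3 rose in the PTS + RS group and 0 fell, against 2.96% and 0.586% of all tested genes. These counts depended on the filter and on single libraries. With no filter on low counts 4 rose and 3 fell, in a fit that called 1119 higher and 716 lower of 30105 genes. The counts also moved, up and down, when 1 library was left out, most of all without PTS + RS replicate 2. Mt1, a metal-binding metallothionein, was at 382 and 395 CPM in the PTS + RS libraries and at 158 and 140 in the RS libraries. This is a log2 fold change of 1.38 ± 0.087 (SE, adjusted p = 5.9e-04, edgeR's quasi-likelihood test). Its near copy Mt2 averaged 3.94 and 3.41 CPM, and how reads shared by such copies were counted is not stated. Mertk, a receptor with which phagocytes take up dying cells, was at 58.5 and 61.4 CPM against 36.3 and 37.4, with a log2 fold change of 0.70 (adjusted p = 0.0075, edgeR). Fam107a, an actin-binding protein of astrocytes and neurons, was at 494 and 499 CPM against 348 and 348, a log2 fold change of 0.51 (adjusted p = 0.017, edgeR). All 3 showed groups well apart, but the call of Fam107a was lost without either RS library (adjusted p = 0.24 and 0.27). The list as a whole went both ways: 14 genes were higher and 6 lower, with a median log2 fold change of 0.18 against -0.0015 over all tested genes, and the median was 0.0024 without PTS + RS replicate 2. Dusp1, which encodes a MAP kinase phosphatase, had the lowest value, -0.61 (15.2 against 23.1 CPM, adjusted p = 0.12, edgeR). Without overlap, 6 of the 20 genes were higher and 4 lower (Dusp1, Per1, Ddit4 and Klf9), against 25.7% and 24.5% of all genes. Mertk is also a gene of microglia, and 5 of 10 astrocyte markers were past the threshold in the same direction.

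The remaining lists held no gene past the threshold in PTS + RS against RS. In the chaperone complex that holds the receptor ready for hormone, 6 of 12 genes were higher and 6 lower, from Hspa8 (0.28) to Fkbp4 (-0.26) on the log2 scale. Of 11 coregulators of the receptor, 7 were higher and 4 lower, with the highest value for Ncoa3 (0.26). Of 8 genes of corticosteroid metabolism and transport, 5 were tested and all were higher, from Star (0.11) to Abcb1a (0.44, adjusted p = 0.066, edgeR). Abcb1a encodes a pump that exports steroids at the blood-brain barrier, and was at 40.4 and 40.2 CPM against 31.1 and 28.1. Among the CRH family and hypothalamic peptides, 8 of 14 genes were tested, 3 higher and 5 lower. Crhr2, the second CRH receptor, was at 3.21 and 1.44 CPM in the PTS + RS group against 4.58 and 8.52, with a log2 fold change of -1.48 ± 0.44 (SE, adjusted p = 0.14, edgeR). DESeq2 called it lower (adjusted p = 0.034), and its level was lowest in PTS + RS replicate 2, the library of that comparison with few choroid plexus transcripts.

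The second comparison asked what RGFP109 does in mice that the study describes as PTS + RS mice. Summed microglial markers were 180 (RGFP109) and 142 FPKM (vehicle) in its cortex-labelled libraries, and 315 and 385 in its amygdala-labelled ones. They were 151 and 140 FPKM in the RS libraries, and 770 and 682 in the PTS + RS libraries of the first comparison. The 2 experiments were normalized separately, and the reason for this difference was not tested. No gene of the 17565 tested was past the threshold in either direction (0% higher and 0% lower by edgeR's quasi-likelihood test), and neither were any by DESeq2 or limma-voom. At an unadjusted p under 0.05, 88 genes were higher and 118 lower, or 0.501% and 0.672%, with none of the 10 genes among them. Only Nr3c1 (higher) and Crhr1 (lower) had groups without overlap, against 12.8% and 13.8% of all genes in these directions. The 2 libraries of a group differ in labelled tissue, and the coefficient of variation between them was 32.1%, against 11.4% in the first comparison, so that the intervals below are wide.

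Nr3c1 was at 94.1 and 114 CPM with RGFP109 and at 74.1 and 92.4 with vehicle. Its log2 fold change was 0.32 ± 0.20 (SE, 95% interval -0.21 to 0.85), and within replicate number it was 0.35 for replicate 1 and 0.30 for replicate 2. These were the closest ratios of the 10 genes. Without vehicle replicate 1, the library with olfactory bulb markers, the log2 fold change was 0.16. Nr3c2 was at 145 and 40.6 CPM with RGFP109 and at 50.6 and 33.8 with vehicle, with a fitted log2 fold change of 1.14 (95% interval -0.50 to 2.78). The RGFP109 libraries themselves differed by more than the groups did. Within replicate 1 the ratio was 2.87-fold and within replicate 2 it was 1.203-fold.

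The cochaperone and the steroid-induced genes differed more between replicates than between treatments. Sgk1 was at 73.2 and 177 CPM with RGFP109 and at 41.7 and 206 with vehicle, with a log2 fold change of 0.02 (95% interval -2.13 to 2.17). RGFP109 replicate 1 was thus above its vehicle partner (log2 ratio 0.81) and RGFP109 replicate 2 below its own (-0.22). Fkbp5 was at 61.6 and 107 CPM against 37.7 and 135 (-0.03, 95% interval -1.70 to 1.64), again higher in replicate 1 (0.71) and lower in replicate 2 (-0.33). For Tsc22d3 the CPM were 53.5 and 102 against 43.8 and 130, with log2 ratios of 0.29 and -0.35. The ratios of Pdk4 were 0.67 and -0.15 and those of Errfi1 0.27 and -0.15, whereas Zbtb16 was higher with RGFP109 in both pairs (1.33 and 0.18). These opposite directions were not tested, since each pair is 1 library against 1. The fitted log2 fold changes were -0.16 for Tsc22d3, 0.13 for Pdk4, 0.03 for Errfi1 and 0.56 for Zbtb16, each with an interval that includes 0.

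Hsd11b1 and Crhr1 had the widest ratios within replicate 1 and almost none within replicate 2. Hsd11b1 was at 19.0 and 9.39 CPM with RGFP109 and at 4.38 and 9.79 with vehicle. That is 4.33-fold within replicate 1 and 0.96-fold within replicate 2, with a fitted log2 fold change of 1.00 (95% interval -0.41 to 2.401). Crhr1 was at 19.0 CPM in both RGFP109 libraries and at 72.3 and 20.2 with vehicle, with a fitted log2 fold change of -1.28 ± 0.61 (SE, 95% interval -2.86 to 0.30). Leaving out vehicle replicate 1 moved Crhr1 to -0.09 and Hsd11b1 to 0.52. Leaving out vehicle replicate 2 instead gave -1.92 for Crhr1 and an adjusted p of 0.049 (edgeR), a call that rests on the library with olfactory bulb markers alone, in a fit that called 78 of 18618 genes lower.

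**Figure D4:**
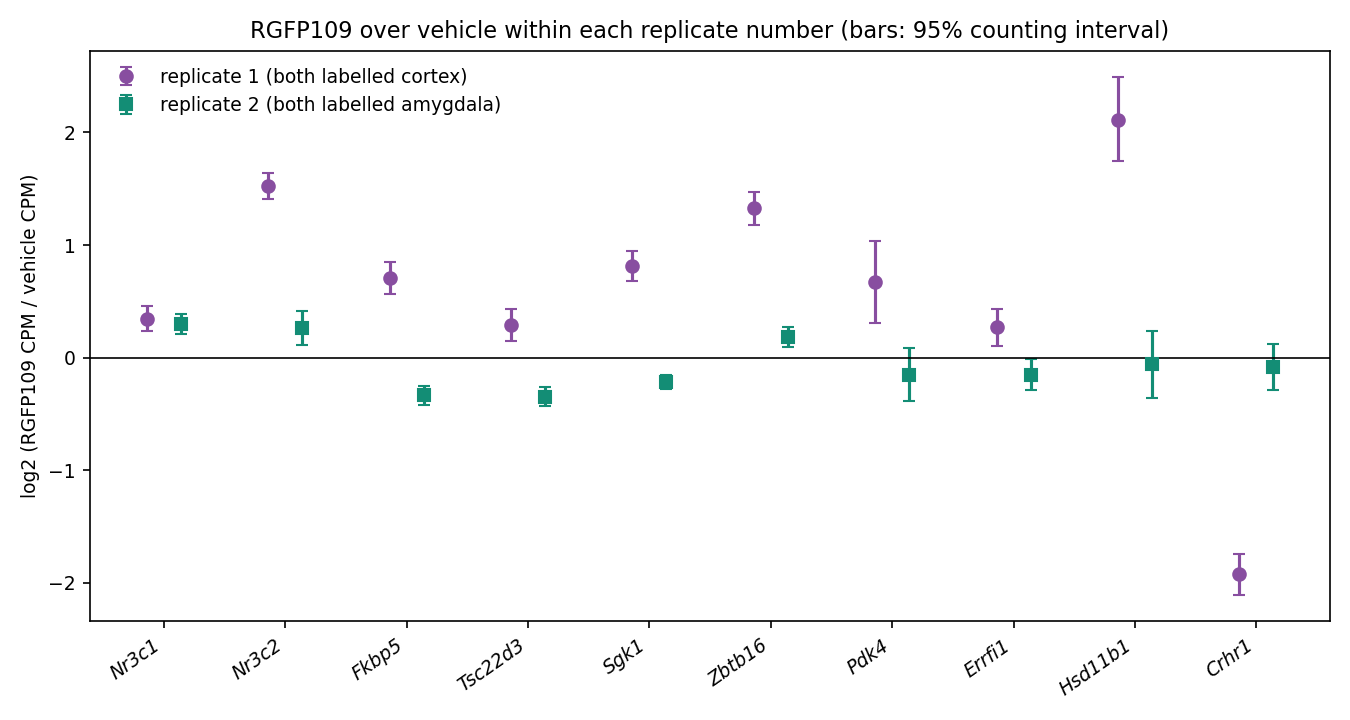
Log2 ratio of RGFP109 over vehicle CPM (y axis) for each of the 10 genes within replicate 1 (circles, both labelled cortex) and replicate 2 (squares, both labelled amygdala), with bars for the 95% counting interval, which leaves out the spread between mice. In replicate 1 the ratios run from -1.93 (Crhr1) to 2.11 (Hsd11b1), and in replicate 2 all lie within -0.35 and 0.30.

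None of the pathway genes was past the threshold with RGFP109. The 20 other glucocorticoid-induced genes split into 7 higher and 13 lower, with a median log2 fold change of -0.05 against -0.02 over all genes. The sign of this median rested on single libraries, since it was 0.51 without vehicle replicate 2 and -0.49 without vehicle replicate 1. Cdkn1a, an inhibitor of the cell cycle, had the lowest value (-1.52, standard error 0.74), with 6.47 and 32.3 CPM against 60.8 and 51.0, and Fam107a the highest (0.24). Of the chaperones 7 of 12 were higher, from Hsp90ab1 (0.23) to Fkbp4 (-0.20), and of the coregulators 5 of 11, from Ncoa1 (0.38) to Ncoa3 (-0.34). In corticosteroid metabolism 4 of 5 tested genes were higher, from Cyp11a1 (0.45) to Abcb1a (-0.02). Of the CRH family and hypothalamic peptides 7 of 14 were tested, 3 of them higher, from Crhr2 (0.85) to Crh (-1.34). Crh, which encodes corticotropin-releasing hormone, was at 1.84 and 5.09 CPM with RGFP109 and at 10.1 and 7.56 with vehicle, without overlap.

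The third comparison grouped the same 4 libraries by labelled tissue, replicate 2 (labelled amygdala) against replicate 1 (labelled cortex). The cochaperone Fkbp5 and all 5 steroid-induced members, Tsc22d3, Sgk1, Zbtb16, Pdk4 and Errfi1, were higher in both amygdala-labelled libraries than in both cortex-labelled ones, with Sgk1 3.34-fold, Fkbp5 2.43-fold and Tsc22d3 2.39-fold higher. No gene of the 17565 tested was past the threshold by edgeR's quasi-likelihood test (0% higher and 0% lower). At an unadjusted p under 0.05, 6.81% of all genes were higher and 4.4% lower. Among the 10 genes, Fkbp5, Tsc22d3, Sgk1 and Pdk4 met this in the higher and Nr3c2 in the lower direction. DESeq2 called 314 genes higher and 102 lower, with Fkbp5, Tsc22d3 and Sgk1 among the former, and limma-voom called 0 and 0. Without overlap, 21.6% of all genes were higher and 22.4% lower, against 6 of 10 and 1 of 10 here.

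Sgk1 was at 177 and 206 CPM in the amygdala-labelled libraries and at 73.2 and 41.7 in the cortex-labelled ones. The lowest of the first pair was 2.42 times the highest of the second, and the fitted log2 fold change was 1.74 ± 0.31 (SE, 95% interval 0.93 to 2.54, adjusted p = 0.26 by edgeR's quasi-likelihood test). Tsc22d3, at 102 and 130 CPM against 53.5 and 43.8, had the smallest unadjusted p of the 10 genes (0.0016 by edgeR) with a log2 fold change of 1.26 ± 0.19 (SE, adjusted p = 0.24). Fkbp5 was at 107 and 135 CPM against 61.6 and 37.7, a log2 fold change of 1.28 ± 0.29 (SE, adjusted p = 0.30, edgeR). Pdk4 was at 14.6 and 16.3 CPM against 9.96 and 6.26, or 0.93 on the log2 scale (adjusted p = 0.37, edgeR). Zbtb16 was at 107 and 93.9 CPM against 77.4 and 30.9 (0.89) and Errfi1 at 42.6 and 47.3 against 39.4 and 32.7 (0.32), both with intervals that include 0. For all 6 genes the lower of the cortex-labelled values was that of vehicle replicate 1. Without this library the log2 fold changes were 1.40 for Sgk1, 1.13 for Tsc22d3, 0.98 for Fkbp5, 0.64 for Pdk4, 0.38 for Zbtb16 and 0.20 for Errfi1. Sgk1, Tsc22d3, Fkbp5 and Pdk4 were then past the threshold (adjusted p of 1.1e-09, 7.3e-07, 7.7e-06 and 0.036, edgeR), with the lone cortex-labelled library assumed to vary like the amygdala-labelled ones. That fit called 1540 genes higher and 1025 lower of 18613.

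The receptors and the other members did not share this pattern. Nr3c1 was at 114 and 92.4 CPM in the amygdala-labelled libraries and at 94.1 and 74.1 in the cortex-labelled ones, with a log2 fold change of 0.29 (95% interval -0.22 to 0.80). Nr3c2 was lower, at 40.6 and 33.8 CPM against 145 and 50.6, with a log2 fold change of -1.40 ± 0.52 (SE, adjusted p = 0.43, edgeR), and -1.95 (adjusted p = 3.7e-14) without vehicle replicate 1. Hsd11b1 lay between its cortex-labelled values of 19.0 and 4.38 CPM, at 9.39 and 9.79 CPM, and its fitted log2 fold change of -0.28 turned to 1.13 without RGFP109 replicate 1 and to -0.97 without vehicle replicate 1. Crhr1 was at 19.0 and 20.2 CPM against 19.0 and 72.3, so that its log2 fold change of -1.22 came from vehicle replicate 1 and was 0.05 without it. The labelled tissue goes with the replicate number in both treatment groups, and any other difference between replicates cannot be told apart from it.

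**Figure D5:**
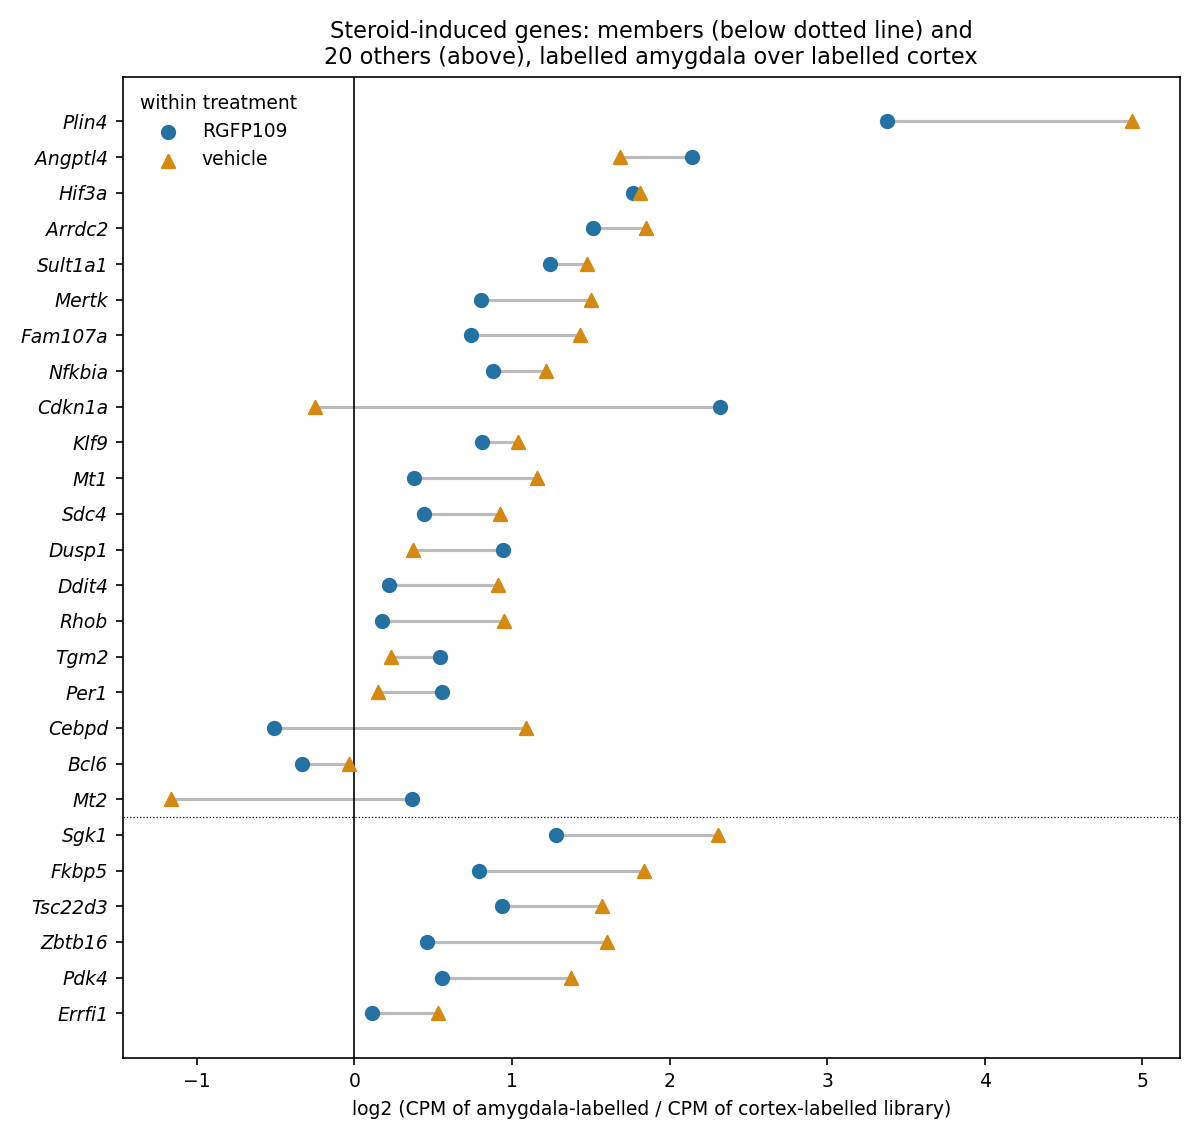
Log2 ratio of CPM in the amygdala-labelled over the cortex-labelled library (x axis) within RGFP109 (circles) and within vehicle (triangles), for 20 other glucocorticoid-induced genes (above the dotted line) and the 6 members of that kind (below it). All 6 members lie right of 0 in both treatments, and Plin4 is farthest right at 3.38 and 4.93.

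The same difference was seen in most of the 20 other glucocorticoid-induced genes. That list was chosen with earlier results of these data known, so that it is no independent check. In the amygdala-labelled libraries 18 were higher and 2 lower, with a median log2 fold change of 0.71 against -0.03 over all genes. Of these, 15 and 1 were without overlap, against 21.6% and 22.4% of all genes. None was past the threshold by edgeR's quasi-likelihood test, and DESeq2 called 9 higher, against 314 of all 17565 genes. Within RGFP109 18 of the 20 were higher, with a median log2 ratio of 0.77, and within vehicle 17, with a median of 1.06. Plin4, a lipid droplet protein and strongly steroid-responsive in several tissues, was at 55.4 and 53.8 CPM in the amygdala-labelled libraries and at 5.33 and 1.76 in the cortex-labelled ones. This was the highest value of the list, a log2 fold change of 3.95 ± 0.54 (SE, adjusted p = 0.21, edgeR). In PTS + RS and RS, both labelled cortex, Plin4 was at 4.23 to 6.34 CPM. The lowest value was that of Mt2 (-0.39), at under 1 CPM in all 4 libraries.

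The size of the difference varied between the treatments from gene to gene. The following genes of the list were chosen after their values were seen. Hif3a, a hypoxia-inducible factor subunit, was 3.40-fold higher within RGFP109 and 3.52-fold within vehicle. Arrdc2 was 2.86-fold and 3.603-fold higher, Sult1a1, a sulfotransferase, 2.36-fold and 2.78-fold, and Klf9, a transcription factor that responds to both stress and thyroid hormones, 1.75-fold and 2.05-fold. Angptl4, a secreted inhibitor of lipoprotein lipase, had a fitted log2 fold change of 1.85. Mt1 was 1.30-fold and 2.23-fold higher, Ddit4 1.16-fold and 1.88-fold, Rhob 1.13-fold and 1.93-fold, and Dusp1 1.92-fold and 1.29-fold. In Cdkn1a, Cebpd and Mt2 the treatments went in opposite directions, with log2 ratios within RGFP109 and vehicle of 2.32 and -0.25 for Cdkn1a, of -0.51 and 1.09 for Cebpd, and of 0.37 and -1.17 for Mt2. Bcl6 was lower in both (-0.33 and -0.036).

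Summed microglial markers were 315 and 385 FPKM in the amygdala-labelled against 180 and 142 in the cortex-labelled libraries, and 10 of 10 striatal markers were higher without overlap. Of the oligodendrocyte markers 9 of 10 were higher without overlap, and choroid plexus markers were at 4.53 and 5.64 FPKM against 1140 and 17.6. The part of these cells and regions in the steroid-induced genes was not tested. The other lists had medians nearer to that of all genes. Of the chaperones 8 of 12 were higher (median log2 fold change 0.03), from Dnajb1 (0.42) to Ptges3 (-0.16), and of the coregulators 2 of 11 (median -0.17), from Ncor1 (0.07) to Crebbp (-0.71). Corticosteroid metabolism ran from H6pd (0.11), which supplies the cofactor of the enzyme encoded by Hsd11b1, to Star (-0.57). The hypothalamic peptides and receptors ran from Adcyap1 (0.24) to Adcyap1r1 (-0.91), the ligand and a receptor of the PACAP system.

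As a description of the pattern over the 8 libraries, log2 CPM were centred within each table and correlated with those of 16926 genes tested in both. The points share libraries and are drawn apart mostly by the amygdala-labelled libraries and vehicle replicate 1. Fkbp5, Tsc22d3 and Sgk1 correlated with one another at Pearson's r of 0.93 to 0.96. The 3 genes most like Tsc22d3 were Ppp1r3g, Klf9 and Ppme1 (r of 0.99 each), and those most like Sgk1 were Tspan14, Xkr6 and Map3k6 (0.998, 0.997 and 0.994). St3gal5, Fancb and Usp33 were most like Fkbp5 (0.98 to 0.99). The pattern of Nr3c2 was closest to Tnxb, Zbtb20 and Ptprs (0.98 to 0.99). Zbtb20, a transcription factor known from hippocampal neurons, is on the hippocampal list above, and Tnxb and Ptprs are not. That list was chosen after its values were seen, so that this is no independent sign of the region. Crhr1 ran opposite to Zbtb16 (-0.91) and to Fkbp5 (-0.80), and Nr3c1 had r of 0.51 with Fkbp5 and -0.12 with Nr3c2.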

How the data were processed

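The authors deposited, for each gene and library, the read count and the FPKM derived from it. Per the labels and the methods, reads were aligned to GRCm38 with STAR 2.4.0 and counted with HTSeq 0.6.1. The methods name RefSeq genes, whereas the tables list Ensembl genes, and labels and methods name different library kits. The strand setting is not stated, so that reads from overlapping antisense genes cannot be told apart. The deposited FPKM equal the count divided by gene length and by 1 factor per library. Columns of the authors' own group means, fold changes and p-values, and 8 further per-library columns, were not used. The counts were filtered (filterByExpr), normalized (TMM) and tested within each table with the quasi-likelihood test of edgeR 4.0.16 in R 4.3.3, with Benjamini-Hochberg adjustment over all tested genes. Log2 ratios between single libraries are of CPM, and intervals on them cover counting error only. Alternatives were DESeq2 1.42.0, limma 3.58.1 (voom), RLE size factors, no filter, the replicate number or treatment as a term, a log2 fold limit of 1, and leaving out each library. The steps were tested on simulated data. The 10 genes and all lists were chosen with earlier results of these data known. Named were all 10 genes, and of each pathway list the genes past the threshold (at most 5) and those with the highest and lowest log2 fold change, and for likeness the 3 genes with the highest r. One result under this rule is not reported here. Of the 10 genes, 9 have the same coordinates in GENCODE M21, and Nr3c1 does not. Same-numbered libraries of the RGFP109 experiment deviated together (r = 0.30), and those of PTS + RS and RS did not (r = 0.035). In the RGFP109 experiment the number equals the labelled tissue, which cannot be told apart from other differences between replicates. Sequences are from RefSeq.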

Additional observations from a re-analysis of the deposited data

Results flagged for a closer look

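For 4 of the 10 genes, RGFP109 and vehicle differed in opposite directions in the 2 replicate numbers by more than counting error. The share of all genes that did so was not computed, and counting error leaves out the spread between mice. The log2 ratio of RGFP109 over vehicle was 0.71 in replicate 1 (labelled cortex) and -0.33 in replicate 2 (labelled amygdala) for Fkbp5, 0.29 and -0.35 for Tsc22d3, 0.81 and -0.22 for Sgk1, and 0.27 and -0.15 for Errfi1. The difference between the replicates was not tested, since each ratio is of 1 library to 1. All 4 replicate 1 ratios were taken against vehicle replicate 1, in which olfactory bulb markers summed to 572 FPKM. The part of that library in these ratios was not tested.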

How the results depend on the processing

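With 2 libraries a group, the number of the 10 genes past the threshold was 0 in each direction of all 3 comparisons, and it depended most on single libraries. With 1 library left out it was 0 to 1 higher and 0 to 2 lower for PTS + RS against RS, 0 higher and 0 to 1 lower for RGFP109 against vehicle, and 0 to 8 higher and 0 to 2 lower for amygdala-labelled against cortex-labelled. The 8 and 2 arose without RGFP109 replicate 1, when vehicle replicate 1 was the only cortex-labelled library, and 4 and 2 without vehicle replicate 1. Calls over all genes rose in the same fits, to 2831 higher and 2552 lower of 18744 and to 1540 and 1025 of 18613. For PTS + RS against RS they reached 1413 and 1278 of 18374 without PTS + RS replicate 2. Such fits assume that the lone library varies like the others. With no filter on low counts 1 of the 10 genes (Nr3c2) was lower in the PTS + RS group, against 716 of all 30105 genes. DESeq2 called 3 of the 10 higher in the amygdala-labelled libraries, against 314 of all 17565 genes. RLE size factors, limma-voom and a fold limit of 2 left all these numbers at 0.

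With the replicate number as a block, none of the 10 genes was called in PTS + RS against RS or in RGFP109 against vehicle. Over all genes the block gave 687 higher and 228 lower for PTS + RS against RS, against 521 and 103 without it, and 0 and 0 with RGFP109. In these comparisons only Fkbp5 of the 10 genes changed sign, to 0.18 with RGFP109 (also 0.18 by limma-voom). With treatment group as a term, Hsd11b1 also changed sign in the amygdala-labelled libraries, from -0.28 to 0.042, and it was at 0.11 by limma-voom.

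Signs that turned when 1 library was left out are given as the lowest and highest log2 fold change, and the cause was not tested. For PTS + RS against RS they were -0.21 to 0.094 for Nr3c1, -0.21 to 0.30 for Fkbp5 and -0.31 to 0.18 for Errfi1. For RGFP109 against vehicle they were -0.051 to 1.79 for Nr3c2, -0.68 to 1.17 for Fkbp5, -0.74 to 0.84 for Tsc22d3, -0.76 to 1.601 for Sgk1, -0.035 to 1.59 for Zbtb16, -0.41 to 0.99 for Pdk4, -0.21 to 0.34 for Errfi1, -0.31 to 1.14 for Fam107a, -0.61 to 0.0082 for Ncoa3 and -0.25 to 0.18 for Abcb1a. For amygdala-labelled against cortex-labelled they were -0.97 to 1.13 for Hsd11b1, -1.88 to 0.055 for Crhr1, -0.82 to 0.056 for Mt2, -0.025 to 0.18 for Ncor1, -0.066 to 0.33 for H6pd and -0.47 to 1.76 for Adcyap1.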
